A study of Mus musculus with 4 samples.

Results

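The nuclear genes for the subunits of the oxidative phosphorylation complexes were examined in mouse cortex 24 h after permanent occlusion of the left middle cerebral artery (pMCAO), a model of ischemic stroke. The genes were chosen by symbol, as the Nduf, Sdh, Uqcr, *Cyc1*, Cox and Atp5 families without assembly factors and pseudogenes, and 83 of the 18194 genes named by a single-gene probe set belonged to them. These were 34 genes of complex I, 4 of complex II, 9 of complex III, 19 of complex IV and 17 of ATP synthase (complex V). In all, 4 conditions were hybridized, namely *P4htm-/-* ipsilateral, *P4htm-/-* contralateral, WT ipsilateral and WT contralateral cortex, each on 1 array with the RNA of 4 mice pooled. The mice were C57BL/6J and 3 months old, and the *P4htm-/-* line, which lacks the transmembrane prolyl 4-hydroxylase P4H-TM, had been backcrossed to C57BL/6. All mice had pMCAO and no array represents an animal without it, and the ipsilateral and contralateral pools of a genotype hold the same animals. With 1 array per condition there is no replicate check, and no error over mice and no p-value can be given for any difference.

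Oxidative phosphorylation couples the oxidation of NADH and succinate to ATP production in the inner mitochondrial membrane. Complexes I and II pass electrons to ubiquinone, complex III to cytochrome c and complex IV to oxygen, while complexes I, III and IV pump the protons that drive ATP synthase. Most subunits are encoded in the nucleus and a few by mitochondrial DNA, and neurons depend on the pathway for the ATP that restores ion gradients, which is why loss of oxygen injures the brain so quickly.

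Many nuclear genes of this pathway are known targets of nuclear respiratory factor 1 (NRF1) and of GA-binding protein (GABP, also called NRF2), so their promoters were searched for both. RefSeq promoters of the mouse build GRCm38.p6, from 250 bases before to 50 bases after the gene's start, were found for 67 of the 83 genes. The NRF1 motif GCGCATGCG, read on both strands, stood in 7 of these promoters (10.4%), against 1.95% of all 27025 gene promoters. The GABP motif CCGGAAG, read on both strands, stood in 17 (25.4%), against 9.93% of all promoters, and in none of these promoters did the 2 motifs overlap. All promoters include those of genes not detected on these arrays, and the shares among detected genes alone were not counted. Shown here are 120 bases of 4 promoters with the NRF1 motif, chosen because the first 3 genes read lower on the *P4htm-/-* than on the WT ipsilateral array whereas *Cox6a1* differed by -0.03. All 4 lie on the minus strand and are written 5′ to 3′, with the NRF1 motif on either strand in capitals; a run of 10 capitals holds it on both strands.
Ndufa8, chr2:36049339-36049458: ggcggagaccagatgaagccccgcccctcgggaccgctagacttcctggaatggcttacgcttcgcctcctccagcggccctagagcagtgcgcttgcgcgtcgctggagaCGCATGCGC
Atp5k, chr5:108434400-108434519: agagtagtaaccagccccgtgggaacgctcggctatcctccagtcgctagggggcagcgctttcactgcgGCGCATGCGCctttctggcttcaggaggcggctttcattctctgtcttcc
Atp5g2, chr15:102671048-102671167: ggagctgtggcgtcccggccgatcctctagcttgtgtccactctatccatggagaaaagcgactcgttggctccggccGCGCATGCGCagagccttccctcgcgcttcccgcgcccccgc
Cox6a1, chr5:115349041-115349160: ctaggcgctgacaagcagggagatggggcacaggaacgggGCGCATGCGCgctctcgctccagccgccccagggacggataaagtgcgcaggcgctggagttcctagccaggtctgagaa
A match is a description of letters and not a binding site. The median log2 difference of *P4htm-/-* minus WT ipsilateral cortex was -0.28 over the 7 genes with the NRF1 motif, with a range of -0.40 to 0.02, against -0.22 over 57 detected genes whose promoter lacked it. It was -0.28 over the 17 genes with the GABP motif and -0.21 over 47 without it. *Uqcrc1*, which also holds the NRF1 motif, differed by 0.02.

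The values are log2 RMA signals, and where several probe sets name a gene the one with the highest mean was used. The 4 arrays had medians of 5.53 to 5.55, and 59.2% to 59.8% of probe sets lay above background, set at 4.78 from 83 probe sets of chemosensory receptors. The deleted gene, *P4htm*, had values of 8.23 and 8.27 in *P4htm-/-* ipsilateral and contralateral cortex, against 10.02 and 10.03 in WT cortex. A gene is called higher or lower when the compared values differed by more than 1.5-fold, or 0.585 on the log2 scale, with at least 1 of them above background. A lower limit of 1.2-fold, or 0.263, is given beside it. The spread of 1 probe set was taken from different probe sets of the same subunit gene and was 0.086 to 0.122 (SD of a difference), which measures the array and not the mice.

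Of the 83 genes, 80 were detected on at least 1 array and 79 on all 4. The mean level of the 80 genes was 11.59 on the *P4htm-/-* ipsilateral, 11.67 on the *P4htm-/-* contralateral, 11.81 on the WT ipsilateral and 11.67 on the WT contralateral array. The WT ipsilateral array was thus the high one, the *P4htm-/-* ipsilateral array the low one, and both contralateral arrays lay together between them. The WT ipsilateral array alone held the highest value of 62 genes, against 29.6% of the 13448 detected genes, and the *P4htm-/-* ipsilateral array alone held the lowest value of 59, against 27.8%. The *P4htm-/-* ipsilateral array alone held the highest value of 1 gene, *Atp5g3*, against 18% of all detected genes, and the WT ipsilateral array alone the lowest value of 6, against 31.6%. The same order of arrays appears in the plot of values by array for complexes I, III, IV and V.

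**Figure D1:**
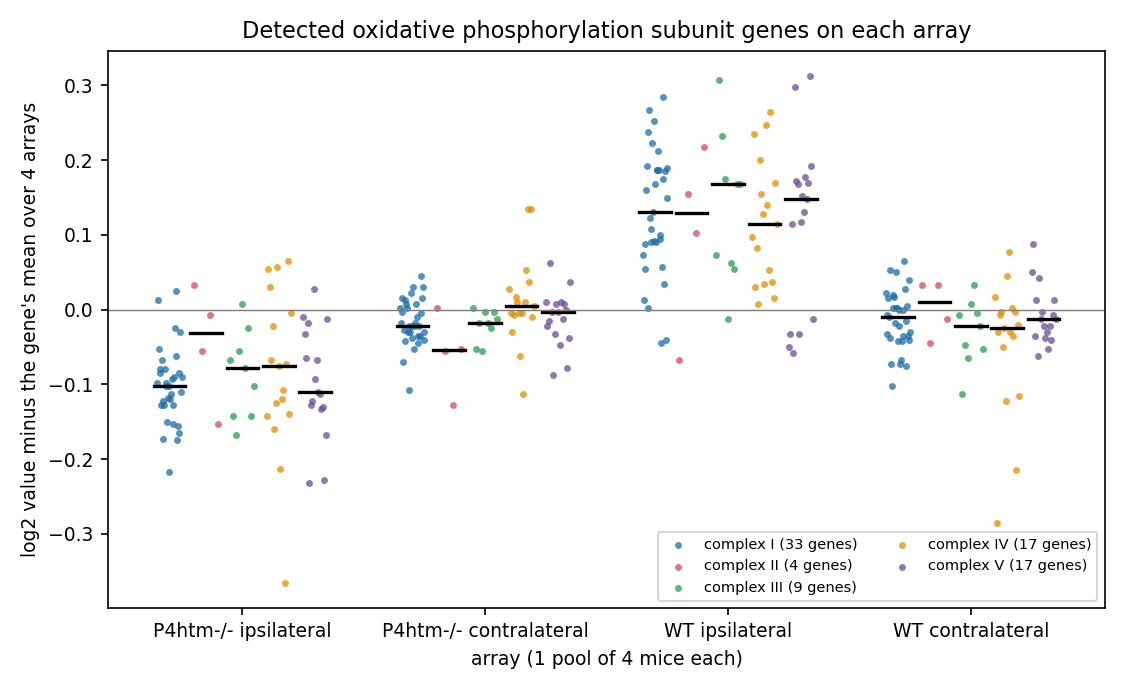
Log2 value of each of the 80 detected subunit genes minus its own mean over the 4 arrays (vertical axis), for the 4 arrays (horizontal axis), coloured by complex; each point is 1 gene and each black line the median of a complex on that array. Most points lie above 0 on the WT ipsilateral array and below 0 on the P4htm-/- ipsilateral array, and the 2 contralateral arrays lie near 0.

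In *P4htm-/-* against WT ipsilateral cortex, 68 of the 80 detected subunit genes read lower and 8 higher, with a median log2 difference of -0.225. Of all detected genes, 50.8% read lower and 46.9% higher, and their median was -0.01. The differences were small, from -0.63 to 0.10. One gene, *Cox7c*, passed the 1.5-fold limit downwards and 0 passed it upwards, against 0.576% and 0.0898% of all 13363 detected genes. Past 1.2-fold, 33 genes (41.2%) were lower and 0 higher, against 10.9% lower and 4.71% higher in all genes.

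**Figure D2:**
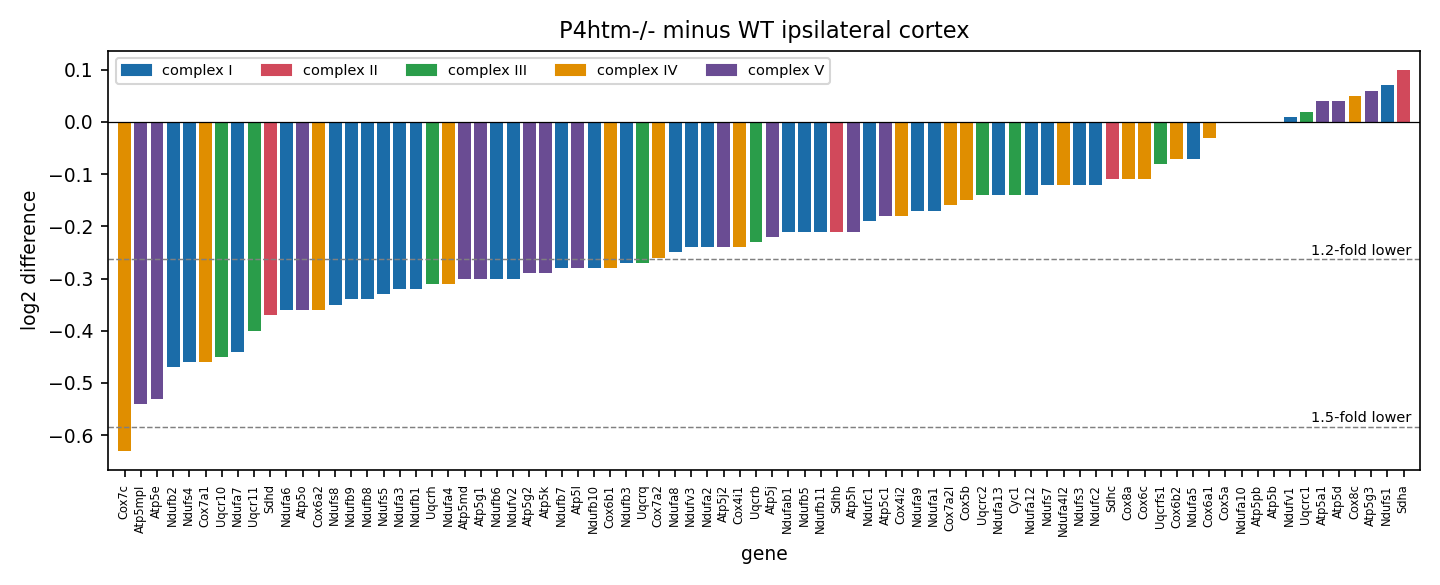
Log2 difference of P4htm-/- minus WT ipsilateral cortex (vertical axis) for each of the 80 detected subunit genes in order of size (horizontal axis), coloured by complex; dashed lines mark 1.5-fold and 1.2-fold lower, and each bar is 1 array minus 1 array. Cox7c at -0.63 alone passes the lower line, 33 genes pass the upper one, and Sdha at 0.10 is the highest.

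In *P4htm-/-* against WT contralateral cortex, the same 80 genes had a median of 0.01 and a range of -0.19 to 0.35, with 30 lower and 43 higher, against 53.1% and 43.1% of all detected genes. With each array centred on its median, 21 were lower and 56 higher. None passed 1.5-fold in either direction, against 0.227% of all detected genes that were higher and 0.159% that were lower. Past 1.2-fold, 2 genes were higher and 0 lower, against 3.96% and 3.8% of all genes. Both were isoforms that are abundant in other tissues, *Cox8c* at 0.35 and *Cox4i2*, whose measured difference was 0.28. The WT contralateral value of *Cox4i2* lay below background, and with the background limit in its place the difference is 0.06. Among the receptor probe sets that set the background, the difference between these arrays had an SD of 0.18. *Cox8c* alone passed the 1.2-fold limit with both values above background.

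Between the sides, the subunit genes stood on opposite sides of 0 in the 2 genotypes. In *P4htm-/-* mice, ipsilateral minus contralateral cortex gave a median of -0.08, with 66 genes lower and 11 higher, and in WT mice it gave 0.17, with 10 lower and 69 higher. All detected genes had a median of -0.02 in both, with 54.7% lower and 41.7% higher in *P4htm-/-* and 52.9% lower and 45% higher in WT cortex. Nothing passed 1.5-fold in either genotype, against 0.165% lower and 1.53% higher of all genes in *P4htm-/-* cortex, and 0.443% lower and 2.42% higher in WT cortex. Past 1.2-fold, 1 gene (*Cox7c*) was lower and 0 higher in *P4htm-/-* cortex, against 4.4% and 5.65% of all genes. In WT cortex 0 were lower and 10 higher, against 9.11% and 12.3%, so the share of subunit genes past this limit upwards was near that of all genes and none passed it downwards. These 2 comparisons share no array, but each array stands in 2 of the 4 comparisons made here.

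Counted gene by gene, 59 of the 80 were above 0 between the sides in WT and below 0 in *P4htm-/-* cortex, against 20.9% of all genes, and 4 had the reverse order, against 18%. A further 7 were above 0 in both, 6 below 0 in both and 4 at exactly 0 in one of them. In bulk cortex, fewer cells of a type and less RNA per cell cannot be told apart, and values are relative to the other transcripts of the same array.

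**Figure D3:**
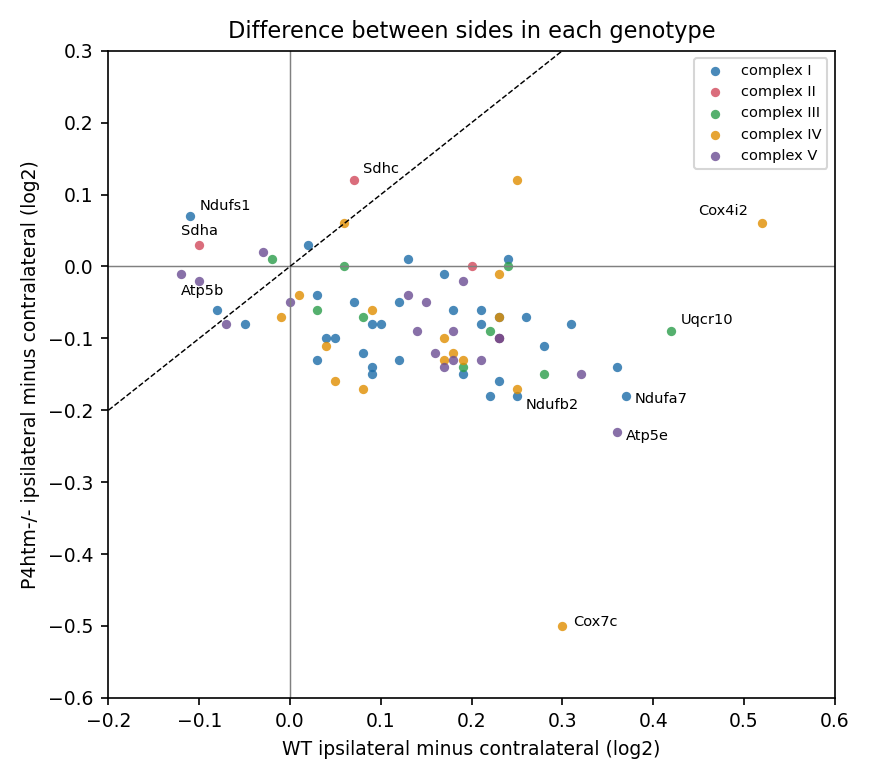
Ipsilateral minus contralateral log2 difference in P4htm-/- cortex (vertical axis) against that in WT cortex (horizontal axis) for the 80 detected subunit genes, coloured by complex; the dashed line marks equal differences. Most genes, 59 of 80, lie in the lower right, above 0 in WT and below 0 in P4htm-/- mice, with Cox7c and Atp5e among the farthest from the line.

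Complex I, the NADH dehydrogenase and the largest complex of the chain, is built of core and accessory subunits. Of its 33 detected genes, 30 read lower in *P4htm-/-* than in WT ipsilateral cortex and 2 higher, with a median of -0.24, and the contralateral median was 0.00. *Ndufb2*, an accessory subunit of the membrane arm, had the lowest difference of the complex between ipsilateral arrays. It read 11.58, 11.76, 12.05 and 11.80 on the *P4htm-/-* ipsilateral, *P4htm-/-* contralateral, WT ipsilateral and WT contralateral arrays. The WT ipsilateral array was high and the *P4htm-/-* ipsilateral array low, with a difference of -0.47 between them. *Ndufa7*, another accessory subunit, read 11.48, 11.66, 11.92 and 11.55 in the same order, and had the highest WT difference between the sides in this complex, 0.37. It was also the highest in *P4htm-/-* minus WT contralateral cortex, at 0.11. In *P4htm-/-* cortex, *Ndufb2*, *Ndufa7* and the core subunit *Ndufs8* all differed by -0.18 between the sides, the lowest value of the complex.

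The Ndufb genes, which encode accessory subunits of the membrane arm, shared their sign. All 10 detected members read lower in *P4htm-/-* than in WT ipsilateral cortex, from -0.47 to -0.21, and all 10 read higher in WT ipsilateral than in WT contralateral cortex, from 0.08 to 0.28. Over all 27 detected accessory genes, 26 were below 0 in the ipsilateral comparison of the genotypes, none above, with a median of -0.25. *Ndufa10* was the one at 0.00, with 12.23, 12.20, 12.23 and 12.21. *Ndufs4*, an accessory subunit of the peripheral arm whose loss causes Leigh-like disease in mice, read 10.13, 10.27, 10.59 and 10.23, so that WT ipsilateral stood above the other 3 arrays, with differences of -0.46 between ipsilateral arrays and 0.36 between the sides in WT. Of its other detected probe sets, one gave -0.51 and 0.48 for these differences and one -0.04 and -0.26, so the WT direction depends on the probe set. *Ndufa6* and *Ndufb8* had the same order of ipsilateral arrays, with differences of -0.36 and -0.34.

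The core subunits encoded in the nucleus, among them those that carry the flavin and the iron-sulfur clusters of the peripheral arm, had both signs. Their 6 detected genes had a median of -0.12 between ipsilateral arrays, with 4 below 0 and 2 above. *Ndufs1*, the subunit with the most iron-sulfur clusters, read 10.76, 10.69, 10.69 and 10.80, so it was highest in WT contralateral cortex and its difference between ipsilateral arrays, 0.07, was the highest of the complex. It was the lowest of the complex in *P4htm-/-* minus WT contralateral cortex and between the sides in WT, both -0.11, and the highest between the sides in *P4htm-/-* cortex, 0.07. *Ndufv1*, the subunit that binds NADH, read 12.17, 12.23, 12.16 and 12.24 and differed by 0.01. By contrast *Ndufs8* and *Ndufv2*, also core subunits, differed by -0.35 and -0.30.

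Complex II, succinate dehydrogenase, has no proton pump and belongs to both the citrate cycle and the chain. Its flavin subunit *Sdha* read 11.87, 11.84, 11.77 and 11.87 on the *P4htm-/-* ipsilateral, *P4htm-/-* contralateral, WT ipsilateral and WT contralateral arrays. WT ipsilateral was thus the low array, and the genotype difference on that side was 0.10. Other detected probe sets of *Sdha* gave -0.04 and -0.02 on that side, so this direction depends on the probe set. The iron-sulfur subunit *Sdhb* read 11.99, 11.99, 12.20 and 12, and was high on the WT ipsilateral array alone, with a difference of -0.21. Of the membrane anchors, *Sdhd* read 10.60, 10.70, 10.97 and 10.74, with a difference of -0.37.
The other anchor, *Sdhc*, read 9.70, 9.58, 9.81 and 9.74, and was lowest on the *P4htm-/-* contralateral array, with a genotype difference of -0.16 on that side and of -0.11 on the ipsilateral side. Its second probe set read 8.42, 8.20, 8.31 and 8.37, with the same sign on the contralateral side but a difference of 0.11 on the ipsilateral one. A second probe set of *Sdhd* gave the opposite order, with 8.01, 7.97, 7.61 and 7.93, so the ipsilateral direction of both anchors depends on the probe set. The median of complex II was -0.16 between ipsilateral arrays, but 0.005 with the mean over each gene's probe sets.

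In complex III, the cytochrome bc1 complex, the small subunits and the large ones are given apart. The 5 small subunits *Uqcrb*, *Uqcrh*, *Uqcrq*, *Uqcr10* and *Uqcr11* were all lower in *P4htm-/-* than in WT ipsilateral cortex, with a median of -0.31, and all higher in WT ipsilateral than in WT contralateral cortex, with a median of 0.24. *Uqcr10* read 11.43, 11.52, 11.88 and 11.46, so that 3 arrays lay together and the WT ipsilateral one stood above them. Its differences were -0.45 between ipsilateral arrays and 0.42 between the sides in WT, and it was the highest of the complex in *P4htm-/-* minus WT contralateral cortex, at 0.06. *Uqcr11* read 11.91, 12.06, 12.31 and 12.03, and at -0.15 had the lowest value between the sides in *P4htm-/-* cortex.
The core protein *Uqcrc1* read 11.93, 11.92, 11.91 and 11.93 and was level on all 4 arrays. The other core protein, *Uqcrc2*, the Rieske iron-sulfur protein *Uqcrfs1* and cytochrome c1, *Cyc1*, differed by -0.14, -0.08 and -0.14 between ipsilateral arrays. On its second probe set *Uqcrc2* differed by -0.26 there, so its distance from the small subunits depends on the probe set. *Cyc1* read 11.91, 11.98, 12.05 and 11.97, and *Uqcrc2* at -0.05 was the lowest of the complex in *P4htm-/-* minus WT contralateral cortex.

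Complex IV, cytochrome c oxidase, held the one gene past 1.5-fold. *Cox7c*, a small subunit of the membrane part, read 6.26, 6.76, 6.89 and 6.59, so the *P4htm-/-* ipsilateral array was the low one, and the gene fell by 0.63 in *P4htm-/-* against WT ipsilateral cortex. Its difference between the sides was -0.50 in *P4htm-/-* and 0.30 in WT cortex. This value rests on 1 probe set, because the other one lay below background on all 4 arrays. With both probe sets averaged 0 subunit genes passed 1.5-fold. The probe set used carries a suffix for possible cross-hybridization with other transcripts. Its mean level of 6.625 was the lowest among the detected subunits without the tissue-restricted isoforms, where *Cox7a2l* came next at 11.38. Of the 11 detected subunits without the tissue-restricted isoforms, 10 were below 0 in *P4htm-/-* minus WT ipsilateral cortex and 1, *Cox5a*, was at 0.00, with a median of -0.16. *Cox6c*, at -0.01, had the lowest WT difference between the sides.

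Several subunits of complex IV and the c-ring have isoforms encoded by different genes, some of them known mainly from muscle, lung or testis. *Cox4i1*, the general isoform of subunit 4, read 13.49, 13.66, 13.73 and 13.65, and was lowest on the *P4htm-/-* ipsilateral array, with a difference of -0.24 from WT ipsilateral. *Cox4i2*, the isoform known from lung and from oxygen sensing, read 4.90, 4.84, 5.08 and 4.56. All of these lay close to the background of 4.78 and the WT contralateral value lay below it. With the background limit in its place, WT ipsilateral stood 0.30 above WT contralateral cortex. The measured difference of 0.52, the highest of the complex, includes a value below background. Among the receptor probe sets that set the background, the difference between these arrays had an SD of 0.21.
*Cox6a1* read 14.49, 14.53, 14.52 and 14.51 and was level, whereas the muscle isoform *Cox6a2* read 8.20, 8.37, 8.56 and 8.31, with a difference of -0.36 between ipsilateral arrays. *Cox6b1* differed by -0.28 and the testis isoform *Cox6b2* by -0.07, with 5.86, 5.74, 5.93 and 5.68 for *Cox6b2*, which at 0.12 was the highest of the complex between the sides in *P4htm-/-* cortex. *Cox7a1*, the muscle isoform of subunit 7a, read 5.64, 5.74, 6.10 and 5.93 and read lower in *P4htm-/-* cortex on both sides, with differences of -0.46 on the ipsilateral and -0.19 on the contralateral one. *Cox7a2* and the assembly-related *Cox7a2l* differed by -0.26 and -0.16 between ipsilateral arrays.
*Cox8a*, the general isoform of subunit 8, differed by -0.11. *Cox8c*, known from testis, read 7.52, 7.59, 7.47 and 7.24, with WT contralateral as the low array, and at 0.05 was the highest of the complex in *P4htm-/-* minus WT ipsilateral cortex. *Ndufa4*, long counted as a complex I subunit and now placed in complex IV, read 12.84, 12.97, 13.15 and 12.96, with a difference of -0.31, against -0.12 for its relative *Ndufa4l2*. *Cox8b* and *Cox7b2* were not above background on any array.

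In ATP synthase, the genes are ordered by the part of the enzyme they build. The 5 genes of the membrane and dimer part, *Atp5j2*, *Atp5k*, *Atp5l*, *Atp5md* and *Atp5mpl*, were all lower in *P4htm-/-* than in WT ipsilateral cortex, with a median of -0.29, and all higher on the ipsilateral side in WT, with a median of 0.21. *Atp5mpl* read 11.41, 11.56, 11.95 and 11.63, with WT ipsilateral high and *P4htm-/-* ipsilateral low, and a difference of -0.54. *Atp5k*, one of the genes whose promoter is printed, read 12.75, 12.85, 13.04 and 12.81.
In the catalytic head the values lay closer together. *Atp5b*, the catalytic beta subunit, read 13.10, 13.11, 13.10 and 13.22, and the WT contralateral array was the high one. *Atp5a1*, the alpha subunit, read 12.96, 12.98, 12.92 and 13.02. The median of the 5 genes of the head and central stalk was 0.00 between ipsilateral arrays, but the small central-stalk subunit *Atp5e* read 11.86, 12.09, 12.39 and 12.03, and so differed by -0.53 there, by -0.23 between the sides in *P4htm-/-* cortex and by 0.36 in WT cortex.
The 3 genes of the c-ring encode the same mature protein with different import sequences, and they did not behave alike. *Atp5g1* read 11.23, 11.27, 11.53 and 11.40 and *Atp5g2* 10.56, 10.65, 10.85 and 10.67, with differences of -0.30 and -0.29 between ipsilateral arrays. A second probe set of *Atp5g1* read 6.46, 6.64, 6.25 and 6.80, and differed by 0.21 there and by -0.55 between the sides in WT, so its direction depends on the probe set. *Atp5g3* read 13.44, 13.42, 13.38 and 13.41, was level and differed by 0.06, the highest of the complex. *Atp5g1* at -0.13 was the lowest of the complex in *P4htm-/-* minus WT contralateral cortex.
The peripheral stalk holds the head in place against the turning ring, and its 4 genes had a median of -0.215 between ipsilateral arrays. *Atp5o*, the oligomycin sensitivity protein that joins the stalk to the head, read 11.93, 12.06, 12.29 and 12.11, and differed by -0.36. *Atp5pb*, the b subunit, read 12.99, 13.04, 12.99 and 12.99 and differed by 0.00, while its second probe set read 11.67, 11.69, 11.88 and 11.69 and was high in WT ipsilateral cortex, so the value of this gene depends on the probe set. *Atpif1*, the inhibitor that stops ATP synthase from running backwards, is outside the rule and read 12.25, 12.36, 12.52 and 12.43, again with WT ipsilateral high and *P4htm-/-* ipsilateral low.

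Genes outside the rule that belong to the same complexes gave further values. Probe sets shared by near-identical copies exist for 3 complex I subunits that no detected single-gene probe set names. That of *Ndufs6* and its copy *Ndufs6b* read 11.30, 11.46, 11.71 and 11.41, the brighter one of *Ndufa11* and *Ndufa11b* 11.42, 11.57, 11.81 and 11.55, and one of *Ndufb4* with *Ndufb4b* and *Ndufb4c* 11.78, 11.99, 12.23 and 11.92. In these 3 probe sets WT ipsilateral was high and *P4htm-/-* ipsilateral low, with differences of -0.41, -0.39 and -0.45 between these arrays, and the copies cannot be told apart. A second detected probe set of *Ndufa11* and *Ndufa11b* read 6.15, 6.49, 6.13 and 6.29, with *P4htm-/-* contralateral as the high array and a difference of 0.02 between ipsilateral arrays. Of the subunits encoded by mitochondrial DNA, only *ND5* of complex I was measured, with 13.99, 13.96, 13.97 and 14.07, which differed by 0.02 between ipsilateral arrays.

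Most subunit genes are represented by several probe sets, which gives a check within the arrays. Of 71 further detected probe sets of these genes, 58 shared the sign of the one used in *P4htm-/-* minus WT ipsilateral cortex, 62 between the sides in *P4htm-/-* and 59 between the sides in WT cortex, but only 32 in *P4htm-/-* minus WT contralateral cortex, where the differences were near 0. In the ipsilateral comparison 7 genes had a detected probe set of the opposite sign, namely *Atp5d*, *Atp5g1*, *Cox6c*, *Ndufv1*, *Sdha*, *Sdhc* and *Sdhd*, and between the sides in WT 11 genes did. For 20 of the 80 genes the probe set used carries a suffix for possible cross-hybridization with other transcripts, so signal from related copies or pseudogenes may be included.

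Lists of genes around the pathway were described in the same way. The assembly factors are proteins that build the complexes without staying in them. Their medians had the same sign as those of the subunits, except in *P4htm-/-* minus WT contralateral cortex. There the factors of complex I had -0.03 and those of complexes II to V -0.02, against 0.01 for the subunits. For complex I, 14 of 15 read lower in *P4htm-/-* than in WT ipsilateral cortex, with a median of -0.26, and for complexes II to V 25 of 29, with a median of -0.23. Of these factors *Cox19*, a copper-handling assembly factor of complex IV, read 9.0, 9.25, 9.56 and 9.16, and *Uqcc2*, needed for complex III, read 11.64, 11.82, 12.10 and 11.70. Both were high in WT ipsilateral and low in *P4htm-/-* ipsilateral cortex, with differences of -0.56 and -0.46. None of these passed 1.5-fold.
The enzymes of the citrate cycle and pyruvate dehydrogenase, which feed the chain, had a median of -0.015 over 16 genes between ipsilateral arrays, and the electron carriers and membrane transporters -0.07 over 20 genes. Cytochrome c, *Cycs*, read 12.27, 12.25, 12.42 and 12.29. The regulators of mitochondrial biogenesis had a median of 0.025 over 14 genes, among them *Ppargc1a*, the coactivator PGC-1alpha, with 10.07, 10.13, 9.91 and 10.11, lowest in WT ipsilateral cortex. In the ipsilateral comparison of the genotypes, the plot of gene groups shows both assembly lists below the citrate cycle and biogenesis lists. The plotted subunit groups also lie below both, except the head and central stalk of ATP synthase, which lies between them at 0.00. The electron carriers are not plotted.

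**Figure D4:**
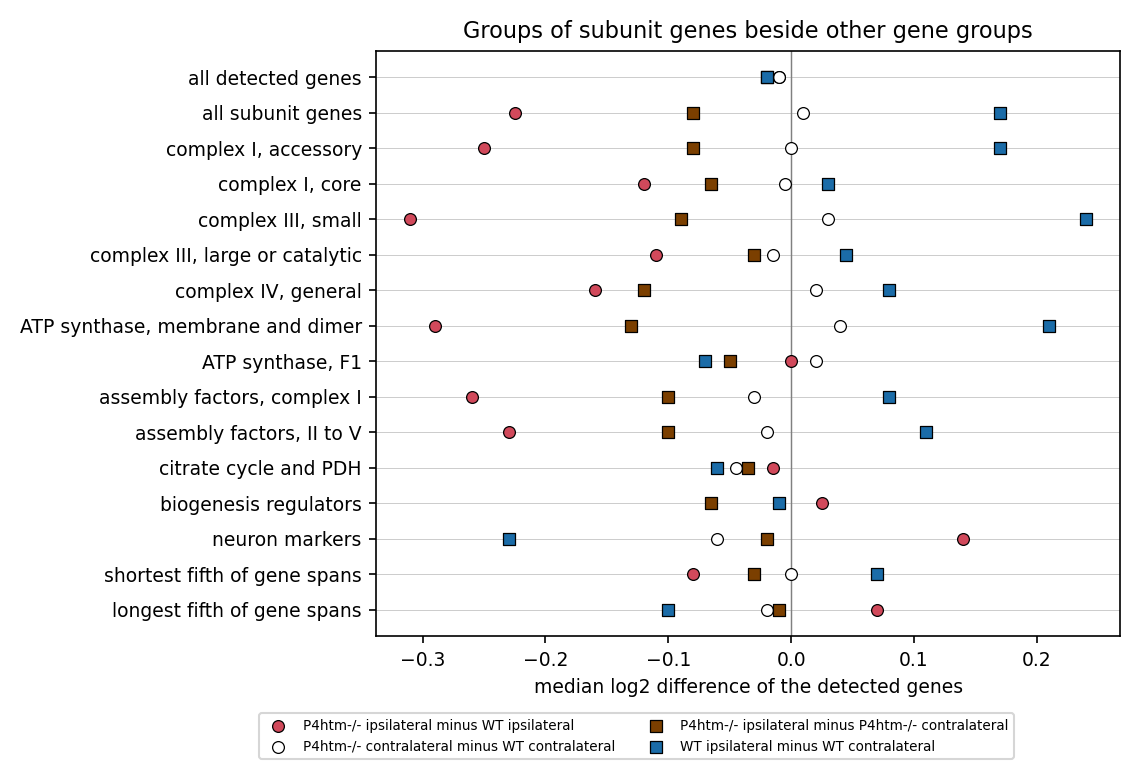
Median log2 difference of the detected genes (horizontal axis) for groups of subunit genes, pathway lists, neuron markers and genes of the shortest and longest spans (vertical axis) in the 4 comparisons; red and white circles are P4htm-/- minus WT in ipsilateral and contralateral cortex, brown and blue squares ipsilateral minus contralateral in P4htm-/- and WT cortex, and marks at equal values overlap. The subunit groups reach -0.31 in red and 0.24 in blue, and the neuron markers have the opposite order, 0.14 in red and -0.23 in blue.

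Other properties of the arrays differed between the same arrays. Neuron markers were higher in *P4htm-/-* than in WT ipsilateral cortex by a median of 0.14, with 14 of 15 above 0 and 0 below, and of -0.23 between the sides in WT, with 14 below 0. Their mean levels were 12.03, 12.05, 11.90 and 12.09 on the *P4htm-/-* ipsilateral, *P4htm-/-* contralateral, WT ipsilateral and WT contralateral arrays, so WT ipsilateral was the low array where the subunit genes were high. Markers of choroid plexus and ependyma, which are not cortical cells, had mean levels of 6.48, 5.78, 6.88 and 5.82, with 11 of 13 lower in *P4htm-/-* than in WT ipsilateral cortex and a median of -0.24. Their median between the sides was 0.37 in *P4htm-/-* and 0.55 in WT cortex. Oligodendrocyte markers were lower in *P4htm-/-* cortex on both sides, with medians of -0.195 and -0.175 and mean levels of 10.53, 10.65, 10.78 and 10.86. Reactive astrocyte markers had mean levels of 8.58, 6.79, 8.74 and 6.73, with 7 of 10 lower and 3 higher in *P4htm-/-* than in WT ipsilateral cortex and a median of -0.17. Ipsilateral exceeded contralateral cortex for all 10 in each genotype, with medians of 1.96 in *P4htm-/-* and 2.17 in WT cortex. Striatum markers, which a cortical dissection can include, had mean levels of 9.73, 9.68, 9.57 and 9.77, with WT ipsilateral as the low array and a median of 0.195 between ipsilateral arrays. The part of these cell types in the result was not tested.
The subunit genes are short. The detected subunit genes had a median span of 7.23 kb, against 23.5 kb for all detected genes, and the shortest 20% of all genes gave medians of -0.08 between the genotypes in ipsilateral cortex and 0.07 between the sides in WT, against 0.07 and -0.10 for the longest 20%. Across the 80 genes, which share the arrays, Spearman's rho with span was 0.26 in the ipsilateral comparison of the genotypes and -0.27 between the sides in WT. With the mean level of a gene, rho was 0.24 and -0.35 in these comparisons. Of the 80 genes, 67 had a mean level above the 90th percentile of all detected genes. The signal of the 3' over the 5' control probe sets of *Gapdh* was 1.16, 1.33, 1.10 and 0.94 on the log2 scale, and that of *Actb* 1.78, 1.97, 1.73 and 1.67. These values are higher where RNA is less intact, and were farther apart between the contralateral arrays than between the ipsilateral ones. For both control genes the ipsilateral value was below the contralateral one in *P4htm-/-* and above it in WT cortex. The part of gene span, signal level and RNA quality was not tested.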

How the data were processed

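The RNA of cortex was labelled from its 3' end by oligo-dT priming and hybridized to Affymetrix mouse expression arrays, 1 array for each of 4 conditions. The authors deposited log2 values made with RMA in GenePattern, with 2 decimals per value; no source used here gives tool versions or the base of the logarithm, which was taken as 2 from the range of 2.51 to 14.9. RMA brings the arrays to a common distribution, so a change shared by all genes would be lost. Of 45101 probe sets, 34958 name 1 gene, 932 several and 9211 none, and symbols were updated for 34754 through RefSeq (GRCm38.p6), which was used for names, spans and promoters only. The value table held 0 unused columns.

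Differences of log2 values were taken between arrays, with no test, since each condition has 1 array. The array values are not counts, so precision is limited by the number of arrays. Members, lists and classes of subunits were chosen with earlier results of these data known. The genes named were the highest and lowest of each complex in each comparison, those past 1.5-fold, the isoform groups, the complex II genes and *Cyc1*; other subunits and pathway genes, such as *Ndufv1*, *Ndufs8*, *Cox19* and *Uqcc2*, were picked with their values in view. The alternatives changed the probe set choice, the detection filter, the scaling (median centring, cyclic loess) and the fold limit (1.2 and 2). Counting past 1.5-fold was tested on simulated data, with planted changes above that limit and noise independent between genes. Shifts as small as those of the subunit genes were not simulated. Python 3.11.15 with pandas 2.3.3 and R 4.3.3 with limma 3.58.1 were used.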

Additional observations from a re-analysis of the deposited data

Results flagged for a closer look

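The difference between the sides had opposite signs in the genotypes, and the values here are the *P4htm-/-* difference (ipsilateral minus contralateral) minus the WT one, each from 1 array per condition and not tested. For the medians of the groups it was -0.25 over all detected subunit genes, -0.21 for complex I, -0.26 for complex III, -0.27 for complex IV and -0.25 for complex V. Complex II is not among them. For complex IV the value rests partly on the tissue-restricted isoforms. Its medians between the sides were -0.10 in *P4htm-/-* and 0.17 in WT cortex with them, and -0.12 and 0.08 without them.

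Of all detected subunit genes, those at least 0.15 below 0 between the sides in *P4htm-/-* cortex and at least 0.15 above 0 in WT cortex are given by complex. The share of all detected genes past the same limits was not counted, and the size of the values follows in part from these limits. In complex I these were *Ndufa7* at -0.55, *Ndufb2* at -0.43, *Ndufs8* at -0.40, *Ndufb9* at -0.39 and *Ndufs5* at -0.34. *Ndufb9* and *Ndufs5* encode accessory subunits. In complex III it was *Uqcr11* at -0.43, in complex IV *Cox7c* at -0.80 and *Cox6a2* at -0.42, and in ATP synthase *Atp5e* at -0.59 and *Atp5mpl* at -0.47. *Ndufs5*, *Uqcr11*, *Atp5e* and *Atp5mpl* have 1 single-gene probe set each, and *Cox7c* has 1 that was detected.

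Probe sets that name several near-identical copies were left out of the comparisons, but gave signal above background. The mean log2 levels over the 4 arrays were 11.98 and 11.9 for the 2 probe sets of *Ndufb4* and its copies, 11.6 for one of *Ndufa11* and its copy and 11.5 for that of *Ndufs6* and its copy.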

How the results depend on the processing

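No replicate could be left out, since each condition has 1 array. No paired analysis was possible because the conditions hold 1 array each. Over the alternatives to the 4 comparisons, 286 of 300 values stayed close to the reported ones, that is within 0.05 for a median and within 1.5 times for a count. This says little where values could hardly move. Most reported counts past 1.5-fold were 0, and 0.05 exceeds each contralateral median by complex. By these limits even the changes of split in the next sentence count as close. The split of genes in *P4htm-/-* minus WT contralateral cortex, 43 above and 30 below 0, was 56 and 21 with median centring, 49 and 22 with cyclic loess and 35 and 34 with probe sets that carry no suffix. The median of the subunit genes ranged from -0.24 to -0.205 in *P4htm-/-* minus WT ipsilateral cortex, from 0 to 0.03 on the contralateral side, from -0.09 to -0.07 between the sides in *P4htm-/-* and from 0.143 to 0.19 in WT cortex. With all probe sets of a gene averaged, 0 genes passed 1.5-fold lower in *P4htm-/-* minus WT ipsilateral cortex, and complex II reversed, with medians of 0.005 there and of -0.02 between the sides in WT. With probe sets that carry none of the suffixes for shared probes (_s, _x and _a) wherever a gene has one, 0 genes passed lower in that comparison and 1 passed higher between the sides in WT, the complex II median was -0.10 for *P4htm-/-* minus WT contralateral cortex, and between the sides in WT complex I had 0.19 and complex III 0.11. Without tissue-restricted isoforms, complex IV had 0.08 between the sides in WT. The limit of 2-fold left 0 genes lower in *P4htm-/-* minus WT ipsilateral cortex, and that of 1.2-fold gave 33 lower there, 2 higher on the contralateral side, 1 lower between the sides in *P4htm-/-* and 10 higher in WT cortex. Adding the probe sets of near-identical copies, a choice made after seeing the data, gave medians of -0.24, 0.01, -0.08 and 0.17 in this order of comparisons. The causes of these shifts were not tested.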
